A study of Mus musculus with 14 samples.

Results

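The 51 genes described here encode the antioxidant and redox enzymes of the mouse brain, chosen by name out of the 43346 genes of the count table. They cover superoxide dismutases, peroxidases, the thioredoxin and glutathione systems, targets of the transcription factor Nrf2 and subunits of the NADPH oxidase. Each of the 51 genes occurred once in the table and passed the filter on low counts in every comparison. RNA was sequenced from a cross-section of brain holding hippocampal and cortical tissue of 14 female mice aged 23 months, all on the C57BL/6;SJL-Tg background, with 1 library per mouse. The 4 NTG mice (wild type, non-transgenic littermates, numbered 7 to 10) and the 5 APP/PS1 mice (genotype APP/PS1 +/+, double transgenic, numbered 16 to 20) drank water with 0.1% PEG from 9 months of age and are labelled non-treated. The other 5 APP/PS1 mice (numbered 21 to 25) drank the same vehicle with CP2 at 25 mg/kg/day over the same period. CP2 is a small molecule that partially inhibits complex I of the mitochondrial respiratory chain. The promoters that drive both transgenes are not given in the sources used here, and NTG mice given CP2 were not analysed here. Hence an effect of CP2 on these genes without the transgenes cannot be told apart from one that needs them.

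Respiring cells release superoxide, which superoxide dismutases turn into hydrogen peroxide, and catalase, glutathione peroxidases and peroxiredoxins then reduce the peroxide. The reducing power comes from NADPH through the glutathione and thioredoxin systems, and Nrf2, held back by the adaptor Keap1, switches on many of their genes under oxidative stress. The phagocyte NADPH oxidase works in the other direction, since it consumes NADPH to make superoxide, and in the brain it is known chiefly from microglia, the resident immune cells.

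Total counts ranged from 70548781 to 106235625 per mouse. Lowest of all member values was Ncf4 in NTG mouse 8, at 47 reads (0.699 CPM). Levels are given as CPM, read counts scaled to a common library size, after TMM correction for library composition. All tests used edgeR's quasi-likelihood test on the counts, with p-values adjusted over all genes tested in a comparison, and a gene was called at an adjusted p under 0.05. The filter asked for more than 1 CPM in every mouse of at least 1 group. Ncf4 therefore entered both comparisons with NTG mice only through the transgenic mice, where it is high. It is counted there among the members called and those without overlap. Mouse 16 stood apart in its tissue, with a summed level of striatum markers of 2501 CPM, against 199 to 382 CPM in the other 13 mice, and its thalamus markers were lowest, at 189 against 402 to 707 CPM. Choroid plexus markers varied within groups, from 25.3 to 959 CPM in NTG, 27.4 to 1361 CPM in APP/PS1 and 191 to 754 CPM in CP2-treated mice. Markers of neurons (6088 to 7226 CPM), of hippocampus and dentate gyrus (484 to 622 CPM) and of cortex (445 to 584 CPM) were present in every library. The hippocampus and dentate gyrus sums were 542 to 622 CPM in NTG, 484 to 577 CPM in APP/PS1 and 512 to 585 CPM in CP2-treated mice. Of these 9 markers 1 was called lower in APP/PS1 and 2 in CP2-treated than in NTG mice. Between CP2 and vehicle 4 of 9 thalamus markers had an unadjusted p under 0.05, with none called (median log2 fold change 0.57). The part of tissue composition in the results below was not tested. In tissue RNA, fewer cells of a type and less RNA per cell cannot be told apart.

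Levels of different genes were compared per transcript length. On the authors' RPKM scale, which divides reads by gene length and library size, Sod1, the cytosolic copper-zinc superoxide dismutase, was the most abundant member with 173 ± 6.55 RPKM in NTG mice (SD, n = 4). The peroxidase Gpx4, which reduces lipid peroxides in membranes, followed at 105 ± 10 RPKM, and 2 glutathione transferases of the mu class came next, Gstm1 at 84.5 ± 7.45 and Gstm5 at 78.0 ± 6.29 RPKM. The ranges of Gstm1 and Gstm5 over the NTG mice overlapped. At the other end of the scale, Ncf4 and Cybb, both subunits of the NADPH oxidase, stood at 0.390 ± 0.0986 and 0.202 ± 0.0749 RPKM. Nfe2l2, the gene of Nrf2, lay in the lower part at 3.51 ± 0.407 RPKM and its inhibitor Keap1 at 11.6 ± 0.675 RPKM. Genes of the mu and pi glutathione transferase families have close copies, so their reads may be shared between family members.

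**Figure D1:**
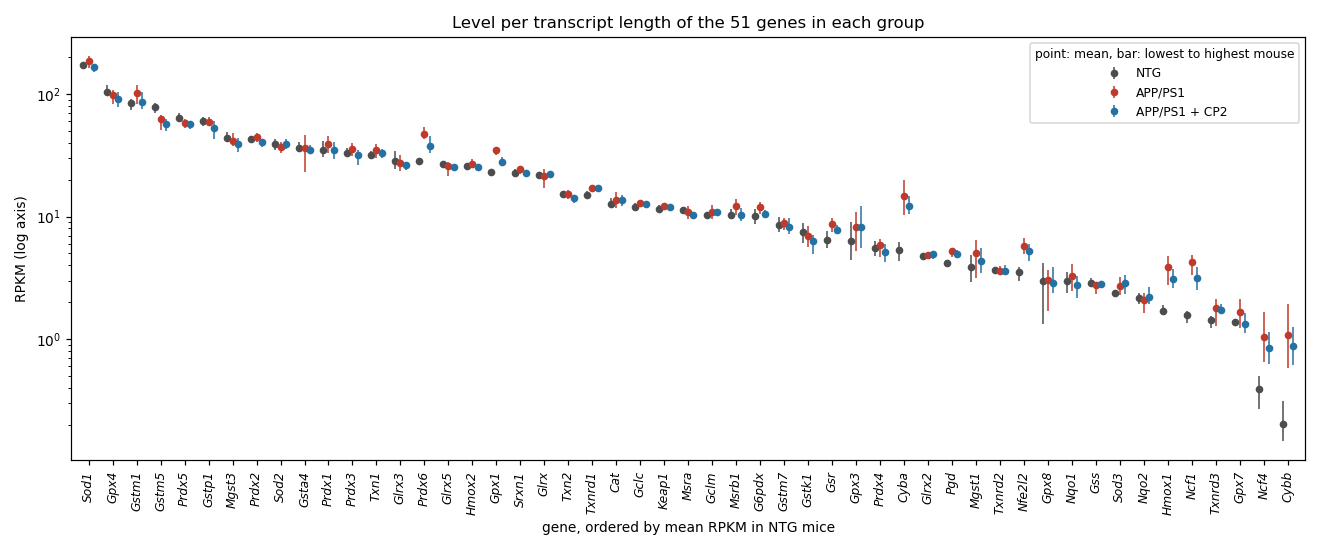
Mean RPKM of each of the 51 genes (log axis) in NTG, APP/PS1 and CP2-treated APP/PS1 mice, with bars from the lowest to the highest mouse, ordered by the mean in NTG mice. Sod1 stands at 173 RPKM in NTG mice and Cybb at 0.202 RPKM. NTG mice lie apart from both transgenic groups for Nfe2l2, Prdx6, Gpx1, Cyba, Hmox1, Ncf1, Ncf4 and Cybb, among other genes.

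To see which of these genes differed with the transgenes, vehicle-treated APP/PS1 mice were compared with NTG mice. The genes of the superoxide-making NADPH oxidase stood higher in APP/PS1 mice, as did Nfe2l2, Hmox1, the peroxidases Gpx1 and Prdx6, and the enzymes Gsr and Pgd. Most of the system differed little. Of the 51 genes 11 were called (21.6%), beside 5.68% of the 16417 genes tested. The 10 higher ones (19.6%, beside 4.34% of all genes) were Cyba, Cybb, Ncf1, Ncf4, Hmox1, Prdx6, Nfe2l2, Gpx1, Gsr and Pgd. Gstm5 alone was lower (1.96%, beside 1.34% of all genes). At an unadjusted p under 0.05 there were 14 members (27.5%), beside 18.7% of all genes, and in 12 members (23.5%) the groups did not overlap, beside 9.97% of all genes. The median log2 fold change over the 51 genes was 0.034, and over all genes tested -0.0042. DESeq2 called these 11 and Prdx5, limma-voom these 11 and G6pdx, and without mouse 16 edgeR called the same 11 genes. Without NTG mouse 8 or 9 the count was 7, the members lost being Gsr, Gstm5, Pgd and Ncf4.

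**Figure D2:**
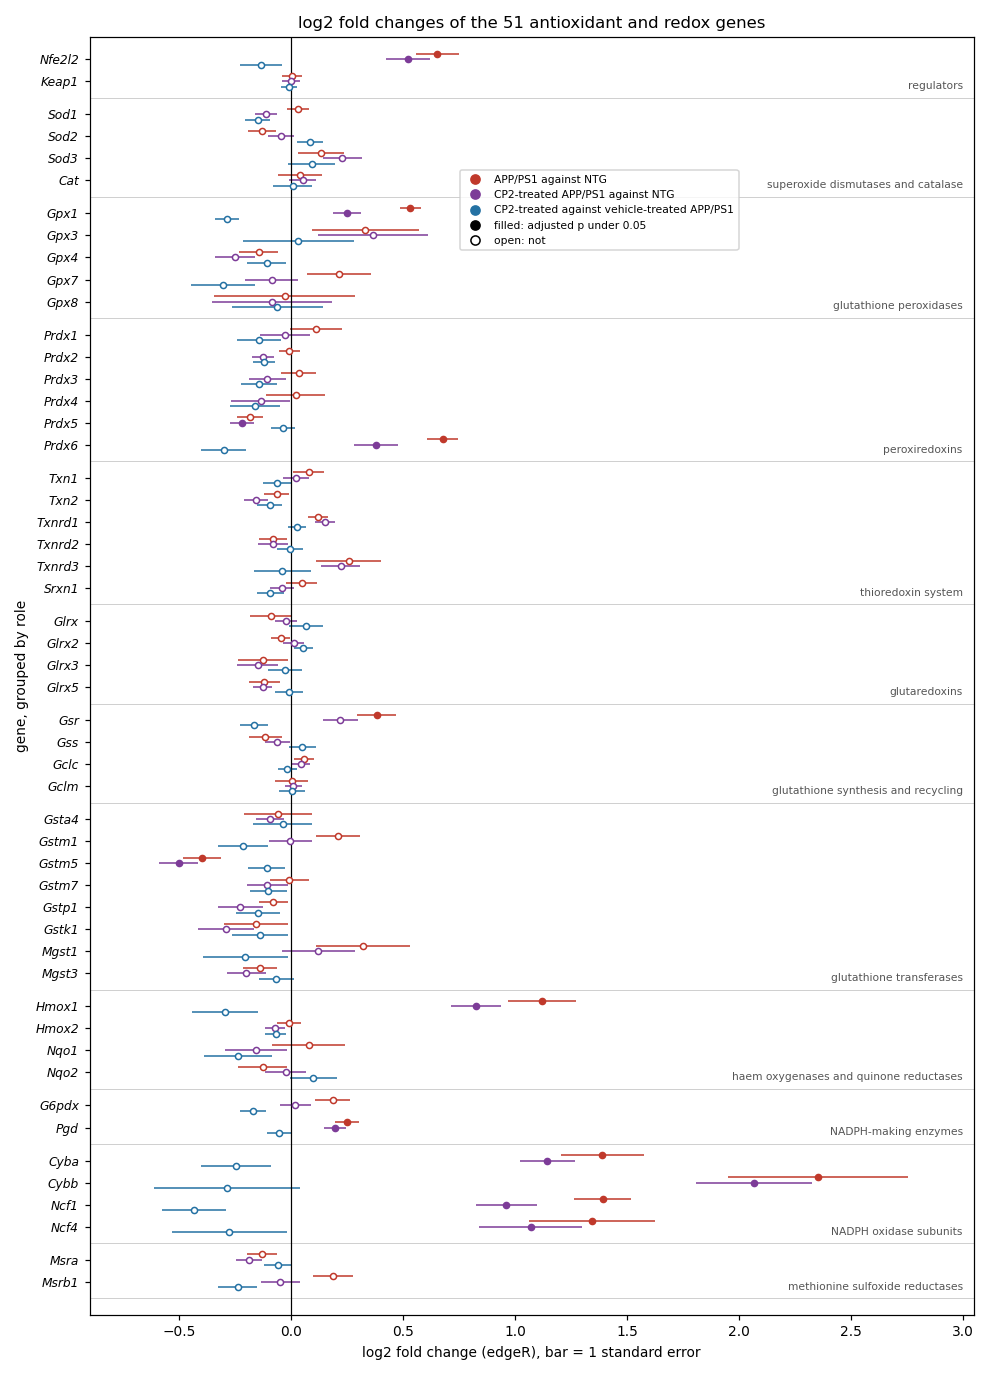
Log2 fold changes of the 51 genes by role (points, with bars of 1 standard error) for APP/PS1 against NTG mice, CP2-treated APP/PS1 against NTG mice and CP2 against vehicle in APP/PS1 mice. Filled points have an adjusted p under 0.05. The 4 NADPH oxidase subunits reach from 1.34 to 2.35 in APP/PS1 against NTG mice, and no point of the comparison of CP2 with vehicle is filled.

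The gene of Nrf2 was among those that rose. Nfe2l2, at chr2:75675513-75704641 (mm10), stood at 18.02, 16.8, 14.2 and 17.3 CPM in NTG mice 7 to 10, at 22.5, 25.0, 26.1, 30.6 and 26.3 CPM in APP/PS1 mice 16 to 20 and at 27.1, 26.6, 20.6, 22.5 and 22.3 CPM in CP2-treated mice 21 to 25. Every transgenic mouse, treated or not, lay above every NTG mouse, and mouse 19 was the highest. The log2 fold change of APP/PS1 against NTG mice was 0.65 ± 0.10 (SE), a 1.57-fold difference with an adjusted p of 0.00317. Keap1, the adaptor that marks Nrf2 for degradation, was level, from 63.6 to 70.0 CPM in NTG, from 64.3 to 69.7 CPM in APP/PS1 and from 65.7 to 69.1 CPM in CP2-treated mice. Its log2 fold change was 0.0050 ± 0.045 (SE, adjusted p = 0.968), and 10.9% of its exonic bases are shared with an antisense gene.

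Nrf2 binds the antioxidant response element, whose core is TGACNNNGC. This core, on either strand and anywhere from 250 bases before to 50 after the RefSeq start site (GRCm38.p6), occurred in 11 of the 43 members with a promoter sequence (25.6%) and in 14.0% of the 27025 genes with one. Among the 7 called members with a promoter sequence, 3 had the core, namely Nfe2l2, Gstm5 and Pgd. The stretches around it are shown for 2 called members, Nfe2l2 and Gstm5, and for 2 textbook Nrf2 targets that were not called, Gclm and Txnrd1, each 5′ to 3′ on the strand of the gene. The capitals mark the core, which reads TGACNNNGC in Nfe2l2 and Gstm5 and on the opposite strand, as GCNNNGTCA, in Gclm and Txnrd1.
Nfe2l2 (chr2:75704870-75704913, minus strand): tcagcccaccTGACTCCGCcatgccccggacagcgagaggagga
Gstm5 (chr3:107895787-107895820, plus strand): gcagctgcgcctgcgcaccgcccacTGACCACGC
Gclm (chr3:122245398-122245456, plus strand): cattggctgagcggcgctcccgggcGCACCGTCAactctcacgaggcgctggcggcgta
Txnrd1 (chr10:82859089-82859147, plus strand): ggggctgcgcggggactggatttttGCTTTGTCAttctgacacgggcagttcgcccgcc
The core begins 240 bases before the start site in Nfe2l2, 42 in Gstm5, 134 in Gclm and 92 in Txnrd1. A match describes the letters in this window and does not show binding. The 8 members with no promoter sequence in the table used were Gsta4, Gsr, Gclc, Hmox1, Ncf4, Prdx6, Msra and Sod3.

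Among the enzymes that convert superoxide and split its product none was called, with edgeR, DESeq2 or limma-voom. Sod1, mitochondrial Sod2, extracellular Sod3 and catalase (Cat), which splits hydrogen peroxide, had log2 fold changes from -0.13 for Sod2 to 0.13 for Sod3, with adjusted p of 0.293 and 0.561. Mean levels of Sod2 were 186 ± 11.5 CPM in NTG and 170.1 ± 10.8 CPM in APP/PS1 mice (SD, n = 4 and 5).

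Of the 5 glutathione peroxidases only Gpx1, the widely expressed cytosolic form that reduces hydrogen peroxide, was called. Its level, read at chr9:108338903-108340343 (mm10), was 40.2, 41.6, 44.0 and 39.0 CPM in NTG mice, 62.3, 60.4, 59.0, 58.5 and 57.5 CPM in APP/PS1 mice and 52.4, 52.2, 50.3, 44.8 and 45.1 CPM in CP2-treated mice. The 3 groups did not overlap, with APP/PS1 mice highest and NTG mice lowest. Gpx1 rose 1.45-fold in APP/PS1 mice (log2 fold change 0.53 ± 0.047, SE, adjusted p = 0.000229). The other members of the family were not called. Gpx3, the secreted form, had a log2 fold change of 0.33 and Gpx4 one of -0.15, with adjusted p of 0.519 and 0.422, while Gpx8 ranged from 1.70 to 5.45 CPM within NTG mice alone.

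The peroxiredoxins split by member. Prdx6 (chr1:161240112-161251219), a peroxiredoxin that draws on glutathione and also carries phospholipase activity, stood at 167, 175, 171 and 164 CPM in NTG mice and at 249.8, 268, 265, 314 and 257 CPM in APP/PS1 mice. In CP2-treated mice it reached 259, 257, 199.6, 195 and 191 CPM. All 10 transgenic mice lay above the NTG range, mouse 19 lay far above the other APP/PS1 mice, and the CP2-treated group parted into 2 higher mice, numbers 21 and 22, and 3 lower ones. Prdx6 rose 1.60-fold (log2 fold change 0.68 ± 0.068, SE, adjusted p = 0.000413). Prdx5 (chr19:6906697-6910106), found in mitochondria and peroxisomes, had values of 183, 171, 164 and 161 CPM in NTG, 137, 154, 156, 157 and 144 CPM in APP/PS1 and 147, 153, 156, 141 and 133 CPM in CP2-treated mice. Every NTG value of Prdx5 was above every transgenic value, although the difference of APP/PS1 against NTG mice was not called (log2 fold change -0.19 ± 0.057, SE, adjusted p = 0.103). With DESeq2 it passed, at an adjusted p of 0.0236. About 19.1% of the exonic bases of Prdx5 overlap Trmt112 on the other strand. The remaining 4 peroxiredoxins, Prdx1 to Prdx4, had log2 fold changes between -0.0082 and 0.11.

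Neither the thioredoxin system nor the glutaredoxins held a call. Thioredoxins (Txn1, Txn2) reduce oxidized cysteines, the thioredoxin reductases (Txnrd1, Txnrd2, Txnrd3) recharge them with NADPH, and Srxn1 restores over-oxidized peroxiredoxins. Log2 fold changes of these 6 genes ran from -0.082 for Txnrd2 to 0.26 for Txnrd3. Txnrd1 came nearest to a call, with 64.0 ± 2.50 CPM in NTG and 69.5 ± 2.55 CPM in APP/PS1 mice and an adjusted p of 0.177. The 4 glutaredoxins all had log2 fold changes below 0, from -0.13 for Glrx3 to -0.047 for Glrx2, although Glrx turned above 0 with the ribosomal RNA share as a covariate.

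In glutathione metabolism the recycling enzyme differed and the synthesis enzymes did not pass the test. Gsr (chr8:33652523-33698163), the reductase that regenerates glutathione from its oxidized form, stood at 21.2, 23.0, 19.3 and 25.0 CPM in NTG mice, 27.4, 28.2, 31.0, 31.5 and 25.8 CPM in APP/PS1 mice and 27.2, 27.7, 25.1, 23.8 and 24.9 CPM in CP2-treated mice. APP/PS1 mice lay above all NTG mice, and CP2-treated mice overlapped both groups. The difference was 1.30-fold (log2 fold change 0.38 ± 0.088, SE, adjusted p = 0.0314). This call was lost when any one of mice 7, 8, 9, 17, 18 and 19 was left out, with adjusted p from 0.0562 to 0.0912, and with the ribosomal RNA share as a covariate (adjusted p = 0.122). Gclc and Gclm, the catalytic and modifier subunits of the rate-limiting synthesis step, had log2 fold changes of 0.056 and 0.0028, and Gss, which completes the tripeptide, -0.12.

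The glutathione transferases, which join glutathione to electrophiles, held the only member that fell. Gstm5 (chr3:107895821-107898686) was at 132, 137, 122 and 108 CPM in NTG mice, at 99.2, 99.6, 95.4, 97.99 and 80.3 CPM in APP/PS1 mice and at 86.3, 95.2, 99.9, 80.6 and 77.3 CPM in CP2-treated mice. No transgenic mouse reached the lowest NTG mouse, number 10, and mouse 20 was the lowest of its group. The log2 fold change was -0.40 ± 0.084 (SE, adjusted p = 0.0211). The call was lost without mouse 7, 8 or 9, at adjusted p of 0.0611, 0.0763 and 0.0582, and with the ribosomal RNA share as a covariate, at 0.0662. About 13.9% of the exonic bases of Gstm5 lie under an antisense gene. Its neighbour Gstm1 had a fold change of the other sign that was not called (0.21, adjusted p = 0.297). The other 6 transferases ran from -0.16 for mitochondrial Gstk1 to 0.32 for microsomal Mgst1.

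Hmox1 (chr8:75093591-75100596), the inducible haem oxygenase that breaks haem down to biliverdin, iron and carbon monoxide, was the most changed member outside the NADPH oxidase. It measured 4.28, 4.57, 4.53 and 4.91 CPM in NTG mice, 7.18, 8.76, 11.2, 12.6 and 9.98 CPM in APP/PS1 mice and 9.04, 9.65, 7.36, 7.58 and 6.87 CPM in CP2-treated mice. The NTG mice lay close together and below all transgenic mice, while APP/PS1 mice spread widely, with mouse 16 lowest and mouse 19 highest. Hmox1 rose 2.17-fold (log2 fold change 1.12 ± 0.15, SE, adjusted p = 0.00174). Of 5 red blood cell markers tested 2 were also called higher, with sums of 82.6 to 152 CPM in NTG, 113 to 476 CPM in APP/PS1 and 136 to 443 CPM in CP2-treated mice. The part of red blood cells in the rise of Hmox1 was not tested. The constitutive form Hmox2 had a log2 fold change of -0.0076, with 40.2% of its exonic bases shared with Cdip1 on the other strand. Nqo1, a quinone reductase and a classical Nrf2 target, stood at 5.73 ± 0.871 CPM in NTG and 6.05 ± 1.21 CPM in APP/PS1 mice (log2 fold change 0.078, adjusted p = 0.851).

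Both NADPH-making enzymes of the pentose phosphate pathway had higher means in APP/PS1 mice, and Pgd was called. Pgd (chr4:149149991-149166771), the 6-phosphogluconate dehydrogenase, measured 33.6, 32.5, 34.6 and 34.2 CPM in NTG, 36.1, 39.2, 40.6, 42.1 and 42.2 CPM in APP/PS1 and 41.4, 40.6, 36.6, 37.9 and 36.8 CPM in CP2-treated mice. No transgenic value fell into the narrow NTG range, and the difference was 1.19-fold (log2 fold change 0.25 ± 0.055, SE, adjusted p = 0.0256). Leaving out mouse 7, 8, 9, 18, 19 or 20 ended the call, with adjusted p from 0.0613 to 0.0742, as did the fit without a filter on low counts (0.0543). G6pdx (chrX:74409483-74429194), glucose-6-phosphate dehydrogenase, which opens the pathway, showed 43.7, 34.6, 37.0 and 39.4 CPM in NTG mice, 38.8, 44.4, 47.3, 46.5 and 42.8 CPM in APP/PS1 mice and 41.3, 41.1, 40.0, 37.0 and 36.5 CPM in CP2-treated mice. The groups overlapped, and the log2 fold change of 0.19 ± 0.079 (SE) was not called (adjusted p = 0.238). Ikbkg on the other strand covers 13.6% of the exonic bases of G6pdx.

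**Figure D3:**
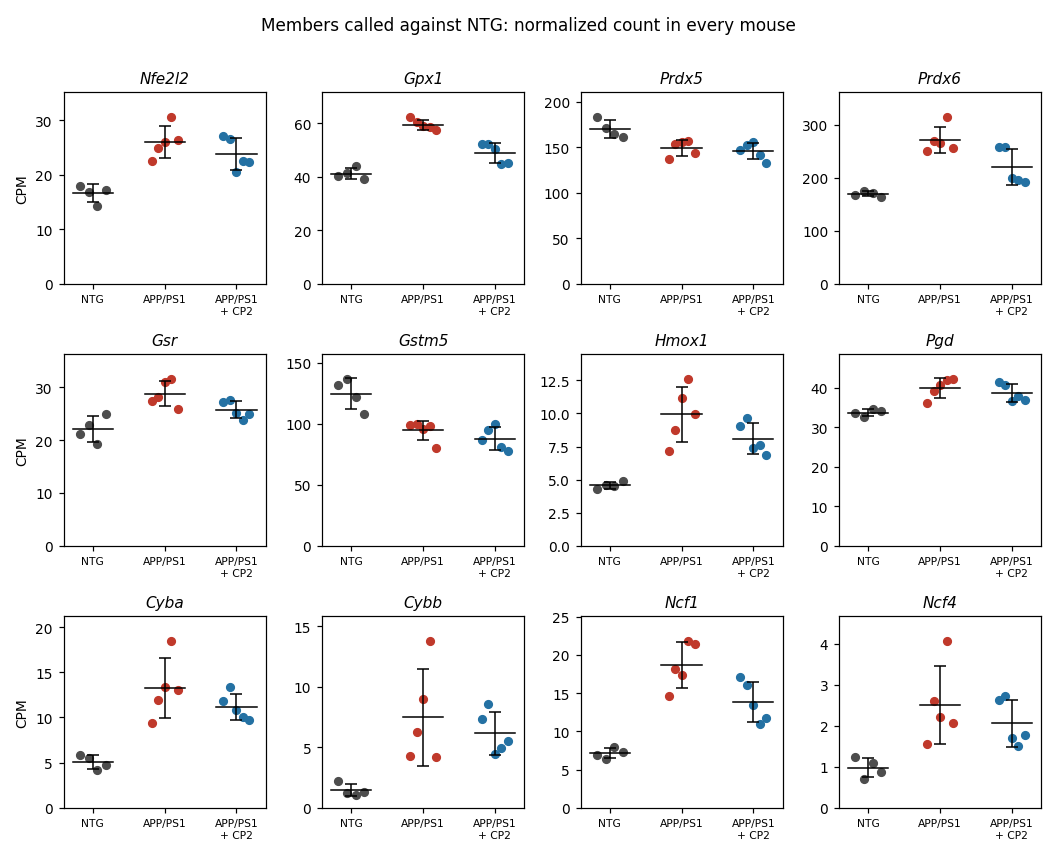
Level in CPM (linear axes from 0) of the 12 members called against NTG mice in either transgenic group, 1 point per mouse, with the mean and SD of each group in black. NTG points lie below all transgenic points in every panel but 3, since Prdx5 and Gstm5 are reversed and Gsr overlaps between NTG and CP2-treated mice.

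The NADPH oxidase changed most. Cyba and Cybb encode its membrane subunits p22phox and gp91phox, and Ncf1 and Ncf4 the cytosolic subunits p47phox and p40phox. Cybb (chrX:9435252-9487771), the catalytic subunit, had 2.232, 1.22, 1.08 and 1.31 CPM in NTG mice, 4.24, 6.27, 8.99, 13.8 and 4.16 CPM in APP/PS1 mice and 7.31, 8.59, 4.42, 4.90 and 5.50 CPM in CP2-treated mice. Mouse 19 stood highest, and all transgenic mice lay above the NTG range. Cybb rose 5.11-fold (log2 fold change 2.35 ± 0.40, SE, adjusted p = 0.00692).

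Cyba (chr8:122424772-122432940) stood at 5.82, 5.48, 4.13 and 4.77 CPM in NTG mice, 9.35, 11.96, 13.4, 18.4 and 13.02 CPM in APP/PS1 mice and 11.8, 13.4, 10.9, 10.1 and 9.69 CPM in CP2-treated mice, a 2.62-fold rise in APP/PS1 mice (log2 fold change 1.39 ± 0.19, SE, adjusted p = 0.00163). Ncf1 (chr5:134220053-134229625) had 6.86, 6.37, 7.90 and 7.32 CPM in NTG, 14.6, 18.1, 17.4, 21.8 and 21.4 CPM in APP/PS1 and 17.2, 16.01, 13.4, 10.97 and 11.7 CPM in CP2-treated mice and rose 2.62-fold (log2 fold change 1.39 ± 0.13, SE, adjusted p = 0.000242). Neither gene overlapped between NTG and transgenic mice, and for Ncf1 11.1% of the exonic bases lie under Gtf2ird2. Ncf4 (chr15:78244801-78262580), the least counted subunit, had 1.25, 0.699, 1.09 and 0.882 CPM in NTG mice, 1.57, 2.61, 2.20, 4.07 and 2.06 CPM in APP/PS1 mice and 2.64, 2.73, 1.69, 1.498 and 1.77 CPM in CP2-treated mice. It rose 2.54-fold (log2 fold change 1.35 ± 0.28, SE, adjusted p = 0.0202), a call that was lost without mouse 8, 9 or 10, at adjusted p of 0.0648, 0.0577 and 0.065, and with the ribosomal RNA share as a covariate, at 0.0551. With NTG mice 8 and 10 below 1 CPM, Ncf4 passed the filter on low counts only through the transgenic mice.

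Microglia markers moved with the oxidase subunits. Of 14 homeostatic microglia markers 11 rose in APP/PS1 mice, and their summed level was 517, 505, 495 and 499 CPM in NTG, 903, 1045, 1044, 1346 and 1300 CPM in APP/PS1 and 1089, 1143, 942, 821 and 796 CPM in CP2-treated mice. The 14 markers differed in the size of this rise, with a median log2 fold change of 1.11. P2ry12 lay at 38.4 to 43.0 CPM in NTG, 45.1 to 54.2 CPM in APP/PS1 and 36.0 to 55.95 CPM in CP2-treated mice. Tmem119 lay at 17.5 to 21.8, 23.6 to 32.0 and 21.1 to 27.1 CPM in the same order. Of the 13 plaque-associated microglia markers measured, 11 rose, with sums of 242 to 300 CPM in NTG, 475 to 741 CPM in APP/PS1 and 433 to 620 CPM in CP2-treated mice. The gene Clec7a has 2 overlapping entries in the table, and both are in these sums. Neutrophils also carry this oxidase, and their 10 markers summed to at most 10.2 CPM, in NTG mouse 10, and to at most 2.41 CPM in any transgenic mouse, with Ly6g at 0 in 11 of the 14 mice. The 7 markers of macrophages at the brain borders summed to 13.1 to 17.6 CPM in NTG, 17.2 to 22.5 CPM in APP/PS1 and 15.0 to 20.6 CPM in CP2-treated mice. Of the 4 tested edgeR called 0 in any comparison, and DESeq2 called Cd163 in APP/PS1 against NTG mice. As a share of the homeostatic microglia sum, Cyba came to 0.835 to 1.13% in NTG, 1.0 to 1.37% in APP/PS1 and 1.09 to 1.23% in CP2-treated mice. For Ncf1 the shares were 1.26 to 1.60% in NTG, 1.61 to 1.74% in APP/PS1 and 1.34 to 1.58% in CP2-treated mice, and for Ncf4 0.138 to 0.241%, 0.159 to 0.302% and 0.18 to 0.243% in the same order. Cybb went from 0.218 to 0.432% in NTG to 0.320 to 1.02% in APP/PS1 and 0.470 to 0.752% in CP2-treated mice. These shares depend on the markers in the sum, and shares of other marker sets were not computed. Markers of astrocytes, endothelium, pericytes and fibroblasts, and oligodendrocytes moved in part as well. Of 10 astrocyte markers Gfap rose in APP/PS1 mice and Fgfr3 and Slc1a2 fell, and in CP2-treated mice Gfap and Aqp4 rose and Fgfr3, Slc1a2 and Gjb6 fell. Gfap, a filament protein of reactive astrocytes, went from 507, 347, 338 and 325 CPM in NTG to 1015, 1740, 1957, 2590 and 2019 CPM in APP/PS1 and 2059, 2153, 1291, 1283 and 1249 CPM in CP2-treated mice. The astrocyte sums ran from 5553 to 5995 CPM in NTG, 5530 to 7565 CPM in APP/PS1 and 5741 to 6964 CPM in CP2-treated mice, so that the groups overlapped. Of 10 endothelial markers 1 rose in APP/PS1 and 4 in CP2-treated mice, with sums of 212 to 228 CPM in NTG, 225 to 319 CPM in APP/PS1 and 243 to 278 CPM in CP2-treated mice. Of 10 pericyte and fibroblast markers edgeR called 0 in APP/PS1 and 3 higher in CP2-treated mice, and DESeq2 called 3 in APP/PS1 mice. Their sums were 187 to 240 CPM in NTG, 181 to 338 CPM in APP/PS1 and 252 to 314 CPM in CP2-treated mice. Of 10 oligodendrocyte markers 1 rose in each transgenic group against NTG mice. The part of microglia, border macrophages, astrocytes, endothelium, pericytes, fibroblasts and oligodendrocytes in the rise of these subunits, and in that of the other called members, was not tested.

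**Figure D4:**
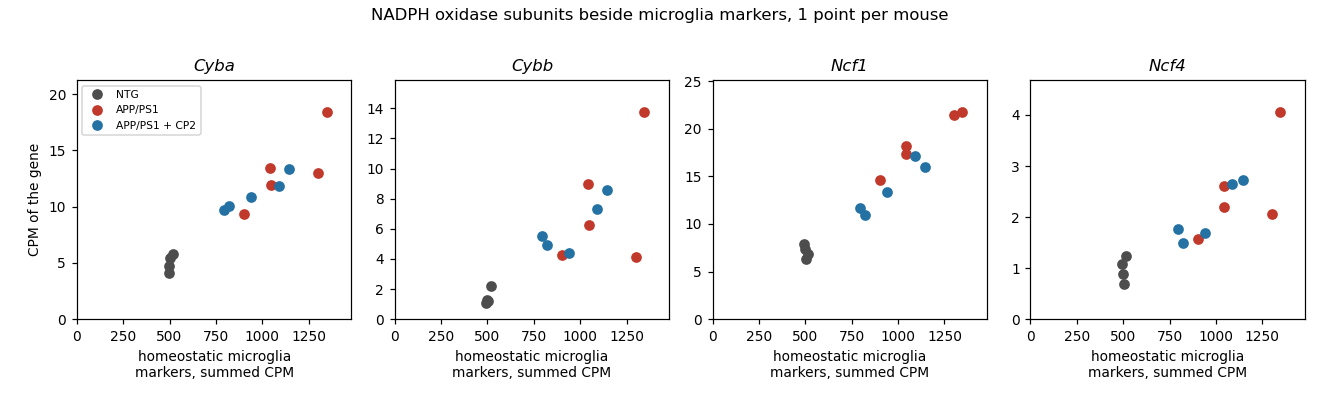
Level of Cyba, Cybb, Ncf1 and Ncf4 in CPM (y axes) against the summed CPM of 14 homeostatic microglia markers (x axes), 1 point per mouse, coloured by group. The 4 NTG mice gather at 495 to 517 CPM of markers, and the transgenic mice lie above them on both axes in every panel.

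The repair enzymes Msra and Msrb1, which reduce oxidized methionine, were not called, with log2 fold changes of -0.13 and 0.19.

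The second comparison asked whether CP2 altered these genes in APP/PS1 mice. Most members had lower means with CP2, by small amounts, and no single gene of the set passed the adjusted threshold. With edgeR 0 of 51 members were called, beside 0.00609% of the 16407 genes tested, which is 1 gene. With limma-voom the count was also 0, and with DESeq2 it was 1, Gpx1 (adjusted p = 0.00489). At an unadjusted p under 0.05 there were 8 members (15.7%), beside 6.55% of all genes, and all 8 were lower with CP2, beside 3.66% of all genes that were lower at this threshold. Log2 fold changes were negative in 41 of 51 members (80.4%), beside 52.5% of all genes, with a median of -0.096 over the members and -0.0060 over all genes. Under the alternatives the negative count ran from 36, without mouse 18, to 44, without mouse 16. These genes share cells and regulators and are not independent of each other, so that the count of negative signs carries no test.

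Gpx1 had the smallest p among the members. It averaged 59.5 ± 1.88 CPM with vehicle and 49.0 ± 3.76 CPM with CP2 in APP/PS1 mice (SD, n = 5 each), with a log2 fold change of -0.29 ± 0.054 (SE, adjusted p = 0.529). It was the only member of the 51 (1.96%) without overlap between both groups, beside 1.18% of all genes. Prdx6 averaged 271 ± 25.2 and 220.3 ± 34.5 CPM in the same order (log2 fold change -0.30 ± 0.10, SE) and Ncf1 18.7 ± 3.0 and 13.9 ± 2.67 CPM (log2 fold change -0.43 ± 0.14, SE). The remaining 5 genes differed by less. Their means without and with CP2 were 18.4 ± 1.86 and 15.7 ± 1.61 CPM for Msrb1 (0.848-fold), 44.0 ± 3.38 and 39.2 ± 2.2 CPM for G6pdx (0.888-fold) and 28.8 ± 2.41 and 25.7 ± 1.63 CPM for Gsr (0.892-fold). Sod1 went from 143 ± 8.05 to 129 ± 8.05 CPM (0.902-fold) and Prdx2, a cytosolic peroxiredoxin rich in neurons and red cells, from 163 ± 6.44 to 150.1 ± 8.58 CPM (0.920-fold). The adjusted p was 0.744 for each of the last 7 genes.

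**Figure D5:**
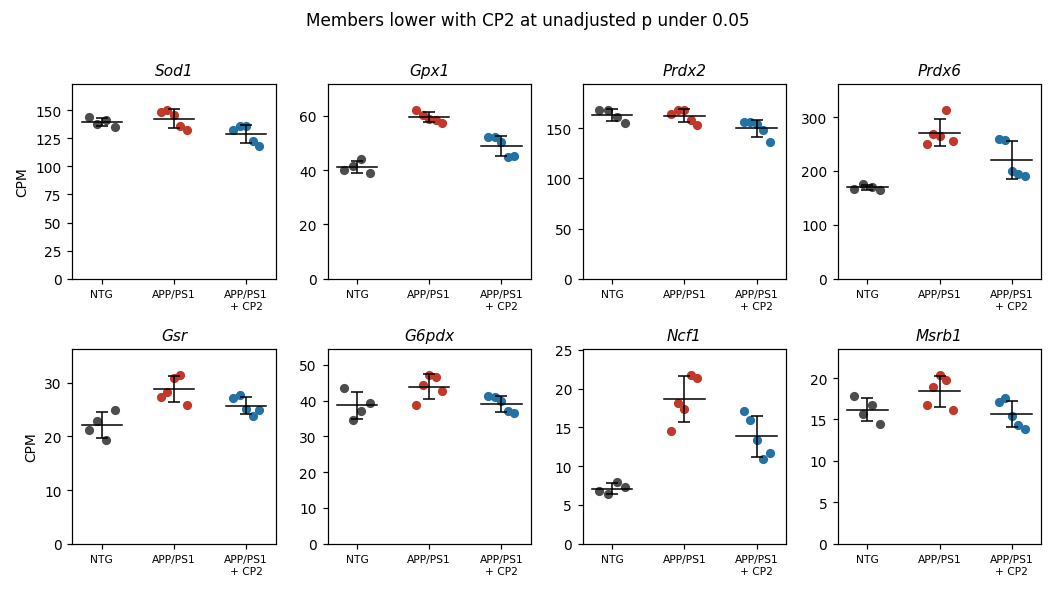
Level in CPM (linear axes from 0) of the 8 members with an unadjusted p under 0.05 between CP2 and vehicle in APP/PS1 mice, 1 point per mouse, with the mean and SD of each group in black. Gpx1 is the only one of the 8 whose 2 APP/PS1 groups do not overlap, at 57.5 to 62.3 CPM without and 44.8 to 52.4 CPM with CP2.

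The number of members at an unadjusted p under 0.05 moved with single mice. It was 14 without mouse 16, the library rich in striatum markers, and 5 without mouse 24. Gpx1, Prdx6, G6pdx, Ncf1 and Msrb1 remained below the threshold whichever mouse was left out. With the ribosomal RNA share as a covariate Msrb1, Gsr, Sod1 and Prdx2 no longer passed it, while Cyba, Hmox1 and Prdx4 did. Within the CP2-treated group, mice 21 and 22 were the 2 highest for Nfe2l2, Gpx1, Prdx6, Gsr, Hmox1, Pgd, Cyba, Cybb, Ncf1 and Ncf4, and the same mice had the highest levels of Gfap, 2059, 2153, 1291, 1283 and 1249 CPM in mice 21 to 25, and the highest sums of astrocyte markers, 6926, 6964, 5976, 5748 and 5741 CPM, and of homeostatic microglia markers, 1089, 1143, 942, 821 and 796 CPM in the same order. The part of either cell type in this split was not tested. By role, the 8 glutathione transferases all had negative fold changes, from -0.22 to -0.038, as did the 6 peroxiredoxins, from -0.30 to -0.038, and the 4 NADPH oxidase subunits, from -0.43 to -0.25. Without mouse 18 Gsta4 turned above 0, and without mouse 19 Cybb did. Superoxide dismutases and catalase were mixed, with -0.15 for Sod1 and 0.092 for Sod3. Gclc and Gclm were near 0, at -0.017 and 0.0039. None of these single differences was called.

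The third comparison set CP2-treated APP/PS1 against NTG mice to show which differences were present under treatment. It shares the NTG mice with the first comparison and the treated mice with the second, so the values are given side by side and not as separate evidence. Members called numbered 11 of 51 (21.6%), beside 6.02% of the 16416 genes tested, with 9 higher, beside 4.56%, and 2 lower, beside 1.46%. At an unadjusted p under 0.05 there were 24 members (47.1%), beside 20.2% of all genes, and in 15 members (29.4%) the groups did not overlap, beside 9.73%.

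Higher in CP2-treated than in NTG mice were the 4 oxidase subunits, with log2 fold changes of 2.07 for Cybb, 1.145 for Cyba, 1.07 for Ncf4 and 0.96 for Ncf1 and adjusted p of 0.00104, 0.000497, 0.0206 and 0.00196. Hmox1 differed by 0.82 ± 0.11 (SE, adjusted p = 0.00157), beside 1.12 without CP2, and Nfe2l2 by 0.52 ± 0.10 (SE, adjusted p = 0.00989), beside 0.65. Prdx6 differed by 0.38, Gpx1 by 0.25 and Pgd by 0.20 on the log2 scale, with adjusted p of 0.0444, 0.0393 and 0.0415, beside 0.68, 0.53 and 0.25 without CP2. Gsr was not called here, at 0.22 ± 0.077 (SE, adjusted p = 0.136). Lower were Gstm5, by -0.50 ± 0.088 (SE, adjusted p = 0.00660), and Prdx5, by -0.22 ± 0.055 (SE, adjusted p = 0.0407).

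Nfe2l2, Hmox1, Gstm5, Cyba, Cybb and Ncf1 were called in this comparison in each fit that left out 1 mouse. Gpx1 was lost without mouse 7, 8, 10, 21, 22 or 23 (adjusted p from 0.0663 to 0.125), Prdx6 without 7, 8, 9, 10, 21 or 22 (0.0757 to 0.114), Pgd without 7, 8, 9, 10, 21, 22 or 24 (0.0683 to 0.121), Prdx5 without 7, 8, 9, 21, 22, 24 or 25 (0.0527 to 0.103) and Ncf4 without 8, 10 or 21 (0.0513 to 0.0638). With the ribosomal RNA share as a covariate Gpx1, Prdx5, Prdx6 and Pgd were not called (0.0524 to 0.0822), and without a filter on low counts Gpx1 and Pgd were not (0.0542 and 0.0768). Pgd was also lost with all 3 groups in one fit (0.0548). Members near the threshold that were not called included Txnrd1, at 71.1 ± 2.87 CPM beside 64.0 ± 2.50 CPM in NTG mice (adjusted p = 0.0735), Msra (-0.19, adjusted p = 0.0944) and the iron-sulfur cluster protein Glrx5 (-0.13, adjusted p = 0.118). DESeq2 called all 3, at adjusted p of 0.0263, 0.0333 and 0.0364.

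Genes of the same pathways outside the set were read from 6 lists, which were chosen with earlier results of these data known. Of 9 Nrf2 partners and regulators, Maff, a small Maf protein that pairs with Nrf2, rose in APP/PS1 mice from a mean of 1.32 to 2.55 CPM (log2 fold change 0.95 ± 0.12, SE, adjusted p = 0.00149), and edgeR called none of the other 8. DESeq2 also called Bach1, and limma-voom Bach1 and Mafk. Among 17 tested other Nrf2 targets 2 rose, Ephx1, the microsomal epoxide hydrolase (0.65 ± 0.094, adjusted p = 0.00272), and the transporter Abcc4 (0.29 ± 0.075, adjusted p = 0.0499). Both were also called against NTG in CP2-treated mice, at 0.50 and 0.30, together with Ugdh, which makes UDP-glucuronic acid (0.29, adjusted p = 0.0379). For Ugdh the log2 fold change without CP2 was 0.31 (adjusted p = 0.0519), a difference that DESeq2 and limma-voom called.

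Among the NADPH oxidase genes outside the set, the GTPase Rac2 rose from 2.43 to 6.09 CPM (1.32 ± 0.14, adjusted p = 0.000590), while edgeR did not call Rac1, Nox1, Noxo1 or Rap1a. Noxo1 was called against NTG by limma-voom in both transgenic groups and by DESeq2 in CP2-treated mice. In CP2-treated against NTG mice the log2 fold change of Rac2 was 0.97. Of 25 tested genes of the other glutathione transferases and glutathione turnover, Gstt1 fell (-0.73 ± 0.15, adjusted p = 0.0157), and Ggt5 (0.59 ± 0.13, adjusted p = 0.0211) and Gsto2 (1.002 ± 0.24, adjusted p = 0.0368) rose. Gsto2 passed the filter on low counts only through the APP/PS1 mice, at 1.12 to 1.81 CPM beside 0.595 to 1.12 CPM in NTG mice. In CP2-treated against NTG mice it did not pass the filter and was not tested. Gstt1 and Ggt5 were called with the same signs in CP2-treated mice, at -0.52 and 0.56, and the glyoxalase Hagh was lower there (-0.19, adjusted p = 0.0359). In APP/PS1 mice limma-voom called 6 genes of this list, adding Glo1, Gstm2 and Gsto1. Among 20 tested other peroxidases and thioredoxin proteins none was called by edgeR in either comparison with NTG mice, where 2 had an unadjusted p under 0.05 in each, and DESeq2 called 1 in each, Txndc17 in APP/PS1 and Sesn1 in CP2-treated mice.

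Of 10 other NADPH sources and methionine sulfoxide reductases, mitochondrial Msrb2 fell (-0.29 ± 0.072, adjusted p = 0.0456) and Nnt, the transhydrogenase that makes mitochondrial NADPH, rose (0.51 ± 0.13, adjusted p = 0.0434) in APP/PS1 mice. DESeq2 and limma-voom called these and Idh2, and in CP2-treated against NTG mice both called Msrb2, where edgeR called 0 genes of this list and 1 had an unadjusted p under 0.05. Nnt measured 18.6, 27.4, 18.8 and 27.3 CPM in NTG mice 7 to 10, 33.6, 32.9, 31.3, 35.0 and 31.2 CPM in APP/PS1 mice and 36.0, 34.3, 19.3, 29.2 and 25.2 CPM in CP2-treated mice. Its values in mice 7, 9 and 23 lay between 18.6 and 19.3 CPM, that of mouse 25 at 25.2 CPM and those of the other 10 mice between 27.3 and 36.0 CPM, so that NTG and CP2-treated mice each spanned low and high values. No gene of the 6 lists was called by edgeR, DESeq2 or limma-voom in the comparison of CP2 with vehicle, where 8 of the 87 genes tested (9.2%) had an unadjusted p under 0.05, beside 6.55% of all genes. All 8 were lower with CP2, beside 3.66% of all genes, among them Rac2 (-0.35) and the pentose phosphate enzyme Taldo1 (-0.15).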

How the data were processed

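RNA-seq libraries of 14 mice in 3 groups were analysed. The authors aligned paired reads to mm10 with TopHat. They deposited raw counts per Ensembl gene from featureCounts, in which a read overlapping several genes was added to all of them, and RPKM values. The strand setting is not given in the sources used here, so sense and antisense reads cannot be told apart. RPKM values, as deposited by the authors, were used only to rank levels between genes. The library totals they imply are larger than the sums of the count columns.

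The 51 members and all gene lists were chosen with earlier results of these data known. Counts were fitted in pairs of groups with edgeR 4.0.16 (TMM factors, glmQLFit and glmQLFTest, Benjamini-Hochberg adjustment over all genes tested) in R 4.3.3. Genes were tested above 1 CPM in every mouse of at least 1 group. Standard errors are those implied by the test statistic. No replicates were alike within sampling noise (26 pairs compared). The edgeR fit was also run on simulated counts of independent genes that share a single dispersion. Those counts hold no differences in tissue or cell composition, so the run does not speak for such differences. Members with an adjusted p under 0.05 in any comparison are named with each mouse's value, members with an unadjusted p under 0.05 between CP2 and vehicle with group means, and the others by role. Nfe2l2, Keap1, G6pdx and the member most abundant per length are named in any case, and of each other list up to 5 called genes. Cell type markers, listed genes that edgeR did not call and individual uncalled members were named after their values were seen. Alternatives were DESeq2 1.42.0, RLE and upper-quartile factors, no filter, a minimum of 10 counts, all 3 groups in one fit, limma-voom (limma 3.58.1), the ribosomal RNA share as a covariate and each mouse left out. Promoter sequences are from RefSeq (GRCm38.p6), and exon overlaps from GENCODE M21. Figures were drawn with matplotlib 3.10.9 under Python 3.11.15. Results of 1 listed gene are not reported here.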

Additional observations from a re-analysis of the deposited data

Results flagged for a closer look

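Over the 51 genes in 3 groups, 153 sets of values were searched for a mouse standing apart from its group (Dixon's test at 95%), and 4 were found. Chance alone flags about 1 in 20 groups. Prdx6 stood at 313.9 CPM in APP/PS1 mouse 19, beside 249.8 to 268.1 CPM in the other 4. Gstm5 stood at 80.25 CPM in APP/PS1 mouse 20, beside 95.41 to 99.63 CPM. Txnrd2 was at 16.1 CPM in CP2-treated mouse 22, beside 13.86 to 14.43 CPM. Glrx5 was at 31.9 CPM in NTG mouse 9, beside 30.69 to 30.82 CPM.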

How the results depend on the processing

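None of the 46 log2 fold changes with an unadjusted p under 0.05 changed sign under any alternative run. Fold changes of other members did in at least 1 alternative, for 13 members in APP/PS1 against NTG, 13 between CP2 and vehicle and 12 in CP2-treated APP/PS1 against NTG mice. Over the 46, 725 values were on the same side of an adjusted p of 0.05 as reported above, 58 lost a call and 7 gained one. An uncalled member that stayed uncalled counts here as the same side, also where its unadjusted p rose above 0.05. For G6pdx in APP/PS1 against NTG mice, the unadjusted p was under 0.05 in 10 of 17 alternatives. In APP/PS1 against NTG mice, leaving out 1 mouse gave from 7 to 11 called members, with 7 without NTG mouse 8 or 9, and Nfe2l2, Gpx1, Prdx6, Hmox1, Cyba, Cybb and Ncf1 were called under all 17 alternatives. With the ribosomal RNA share as a covariate 8 members were called higher and 0 lower. That share, read from the entries Yam1 and AY036118, was 4.7 to 7.5% in NTG, 2.4 to 5.5% in APP/PS1 and 4.5 to 7.4% in CP2-treated mice. Between CP2 and vehicle, DESeq2 called 1 member (Gpx1) where edgeR called 0, and the members at an unadjusted p under 0.05 ran from 5 to 14 with 1 mouse left out. In CP2-treated APP/PS1 against NTG mice, the count was 7 with the ribosomal RNA share as a covariate and from 6 to 11 with 1 mouse left out, with 6 without mouse 8 or 21 and 7 without mouse 7, 10 or 22. Fewer mice in a fit lower its power, and no other cause was tested. The median of all genes moved by less than 0.1 on the log2 scale under every scaling. No paired analysis was possible because the groups share no replicate numbers. Groups of 4 and 5 mice limit what could be called, and low counts limit the precision of Ncf4 and Cybb, whose lowest libraries held 47 and 82 reads.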
